A study of Mus musculus with 3 samples.

Results

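The alpha-defensin family was examined in RNA sequencing of epithelial cells from the upper small intestine, the lower small intestine and the large intestine of mice. Members were taken by name, as every row whose symbol begins with Defa together with AY761184, which gave 19 of the 24346 rows of the files. Each region is represented by 1 library, so no difference below has a replicate check and all of them describe these libraries. Per the labels, the epithelium was released from opened, washed intestines with EDTA in a shaking bath, with no sorting step named, and the number of animals per library is not given. The 3 source names carry the prefix SPFm, and no genotype, age or treatment is given for any library. A strain entry, naming the mouse colorectal cancer model MC38, stands on the upper small intestinal library and on no other. If it is true, wherever that library is compared strain and region cannot be told apart.

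Alpha-defensins, called cryptdins in the mouse intestine, are short cationic peptides that kill bacteria and are held in shape by disulfide bonds between cysteines. They are made by Paneth cells, secretory cells at the base of small intestinal crypts that the colon of healthy mice normally lacks, and are stored in granules and released into the lumen. In mice the precursors are cut to active peptides by the protease matrilysin (Mmp7). A related branch, the cryptdin-related sequences, keeps the alpha-defensin signal and pro-regions and carries a different, cysteine-rich end.

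Of the 19 members, 15 were found by symbol in GENCODE M21 (mm10, also called GRCm38), and 2 matched through older names in RefSeq, among them Defa-rs7, an older name of Defa31. The sequence and position given for Defa-rs7 are those of Defa31 and rest on this name match. RefSeq also lists Defa3, Defa20 and Defa23 as older names of Defa17, Defa32 and Defa31. The annotation behind the files is not known, so a match by name may point to a gene other than the one counted. Defa4 and Defa6 matched neither annotation, so no position or length is given for them. Stretches that they share with other members could not be counted. On chromosome 8, 15 members lie in a cluster of 710 kb, chr8:21025545-21735471 (mm10), which runs from Defa21 to Defa24. The pseudogenes Defa-ps12 and Defa-ps13 lie outside it by at least 1721 kb, and RefSeq lists older names for both that begin with Defb, the beta-defensin prefix. AY761184 lies at chr8:21702519-21703645 on the minus strand, where RefSeq places Defa39.

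The coding sequences of the members that the results turn on are shown because near-identical genes can share reads, and because the pattern of cysteine codons separates the branches of the family. They are spliced GENCODE M21 coding sequences, 5′ to 3′, with in-frame cysteine codons in capitals. Defa24 (chr8:21734494-21735471, plus strand), Defa21 (chr8:21025545-21026516, plus strand) and Defa22 (chr8:21162277-21163249, plus strand) each hold 6 such codons. AY761184 holds 11, and of this longer gene bases 172 to 351 are given.
Defa24: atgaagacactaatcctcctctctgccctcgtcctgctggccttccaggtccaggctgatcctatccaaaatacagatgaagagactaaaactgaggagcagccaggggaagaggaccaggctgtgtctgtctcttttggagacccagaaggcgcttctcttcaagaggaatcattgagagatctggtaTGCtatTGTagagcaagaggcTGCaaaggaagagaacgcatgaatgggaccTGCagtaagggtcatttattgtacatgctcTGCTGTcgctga
Defa21: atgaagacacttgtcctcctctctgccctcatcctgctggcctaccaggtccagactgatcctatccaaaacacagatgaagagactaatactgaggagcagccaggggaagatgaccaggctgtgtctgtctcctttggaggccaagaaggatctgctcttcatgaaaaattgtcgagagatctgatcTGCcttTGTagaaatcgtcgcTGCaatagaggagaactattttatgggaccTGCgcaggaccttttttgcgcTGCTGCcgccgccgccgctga
Defa22: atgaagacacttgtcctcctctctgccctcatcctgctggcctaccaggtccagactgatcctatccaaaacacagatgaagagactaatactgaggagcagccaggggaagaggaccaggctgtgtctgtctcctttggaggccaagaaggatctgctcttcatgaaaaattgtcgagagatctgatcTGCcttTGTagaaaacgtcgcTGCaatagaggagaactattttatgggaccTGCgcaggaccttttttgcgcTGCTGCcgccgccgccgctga
AY761184: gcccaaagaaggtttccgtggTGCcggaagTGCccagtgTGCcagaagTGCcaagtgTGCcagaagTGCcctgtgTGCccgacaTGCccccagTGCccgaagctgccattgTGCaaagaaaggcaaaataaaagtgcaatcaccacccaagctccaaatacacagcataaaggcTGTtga

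Defa21 and Defa22 differ at 2 of 282 coding bases. In both, 6 codons separate the fourth from the fifth cysteine codon, against 9 codons in Defa24, and the same short spacing occurs in Defa2 and Defa20. Defa17 and Defa3 have identical coding sequences, as do Defa-rs7 and Defa23. The value of any single gene in such a pair is uncertain. Sums are given over the family, over Defa21 with Defa22, and over the 7 members with the 9-codon spacing. That last sum holds Defa17, Defa3, Defa-rs7 and Defa23, and no sum is given for these pairs alone.

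The family was among the most abundant transcripts of both small intestinal libraries and was close to absent from the large intestine. Summed over the 19 members, the deposited values, taken as FPKM (fragments per kilobase, relative to sequencing depth), came to 37461 FPKM in the upper small intestine, 40644 FPKM in the lower small intestine and 34.7 FPKM in the large intestine. These sums were 5.4%, 6.29% and 0.00666% of all FPKM of the upper, lower and large libraries. The upper sum was 0.922 times the lower sum and 1078.5 times the large sum, and the lower sum was 1170.1 times the large sum. In bulk samples such as these, fewer cells of a type and less RNA per cell cannot be told apart.

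The libraries held 693218, 646262 and 521651 FPKM in all for upper, lower and large, with 11491 to 11595 rows at 1 FPKM or more. The spacing of low values put 1 FPKM at about 14.7, 21.7 and 16.7 reads for a 2 kb transcript. Reads per member were implied from this spacing and from full transcript length. The spacing was fitted to transcripts of at least 1500 nt, and whether it holds for the much shorter members was not checked. The 95% exact intervals given below rest on these approximate counts and cover counting error only. They do not cover the variation between mice or cell isolations, or how shared reads were assigned to genes. With no molecular identifiers named, reads may be copies of 1 molecule. As a check of the labels, Car1, a carbonic anhydrase of colonic surface cells, was at 0.257, 0.172 and 6414 FPKM in the upper, lower and large libraries. Sis, encoding the small intestinal enzyme sucrase-isomaltase, was at 936, 491 and 5.93 FPKM in the same order.

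Defa6 was the most abundant member in every library, at 19046 FPKM in the upper small intestine, 18619 FPKM in the lower small intestine and 15.9 FPKM in the large intestine. Defa24 came second in every library, at 10287, 9947 and 9.47 FPKM in the upper, lower and large libraries. For both genes the 2 small intestinal values were close to each other and the large intestinal value was far below them. The upper to lower ratio of Defa24 was 1.03 (1.02 to 1.05), and that of Defa6 was 1.02, with no interval because its length is not known. Whether the Defa6 row shares reads with relatives could not be checked. Together Defa6 and Defa24 made up 78.3% of the family sum in the upper, 70.3% in the lower and 73.0% in the large library.

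AY761184, which belongs to the cryptdin-related branch by its 11 cysteine codons, was at 4492 FPKM in the upper small intestine, 1834 FPKM in the lower small intestine and 0.747 FPKM in the large intestine. It was the only measured member called higher in the upper than in the lower library, by a ratio of 2.45 (2.39 to 2.51). Of its transcript, 33.5% of the 50-base stretches occur in another alpha-defensin transcript. That interval does not cover how shared reads were assigned, and no sum over the genes with 11 cysteine codons is given.

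Defa21 and Defa22, the pair with the short cysteine spacing, were lower in the upper than in the lower small intestine. Defa21 was at 799.6 FPKM in the upper, 4021 FPKM in the lower and 2.07 FPKM in the large library. Defa22 was at 845, 3952 and 5.69 FPKM in the same order. Both genes thus had an intermediate level in the upper library and about 5 times as much in the lower one. Their upper to lower ratios were 0.199 (0.191 to 0.207) for Defa21 and 0.214 (0.205 to 0.223) for Defa22. Since reads may be shared between them, their sum is the firmer value, at 1645.0 FPKM in the upper and 7972.8 FPKM in the lower library, a ratio of 0.206.

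**Figure D1:**
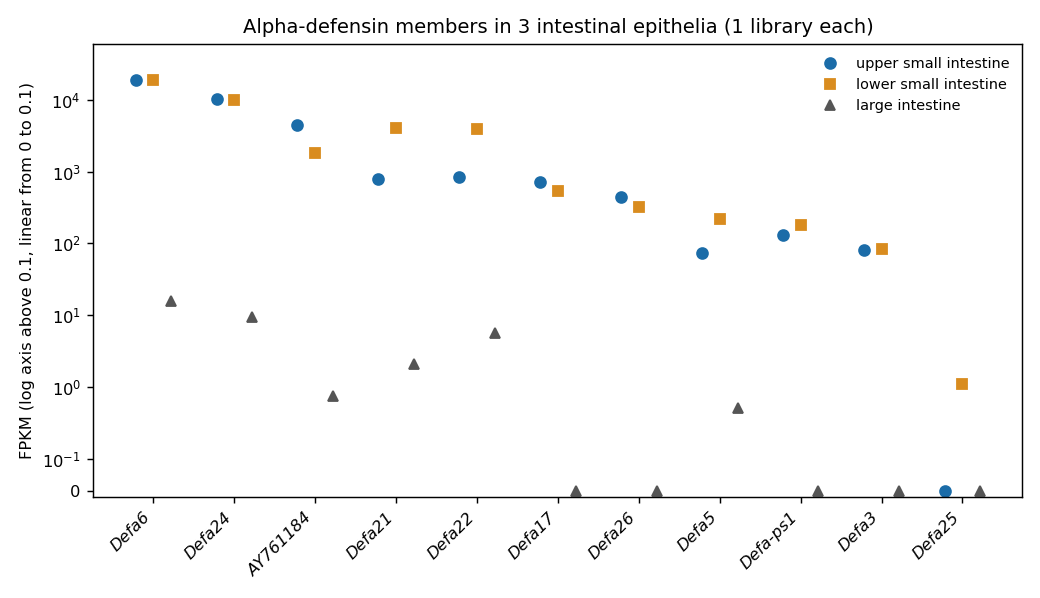
FPKM (log axis above 0.1, linear below) of 11 members that reached 1 FPKM in some library, with 1 symbol per library (upper small, lower small and large intestine). All large intestinal values lie at 15.9 FPKM or below, and Defa21, Defa22 and AY761184 show the widest gaps between the small intestinal libraries among the 5 most abundant members.

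Defa5 was at 74.3 FPKM in the upper, 222 FPKM in the lower and 0.512 FPKM in the large library, an upper to lower ratio of 0.335 (0.285 to 0.389). Of its transcript, 99.7% of the 50-base stretches occur in another alpha-defensin transcript, so its level is among the least certain. The pseudogene Defa-ps1 was listed at 131 FPKM in the upper and 182 FPKM in the lower library, and at 0 in the large intestine. Of its 50-base stretches 67.8% occur in another alpha-defensin transcript, so reads listed for it may come from other genes.

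Among members short of the 2-fold rule between the small intestinal libraries, Defa17 was at 719 FPKM in the upper and 544 FPKM in the lower library, with a ratio of 1.32 (1.24 to 1.40). Defa26 was at 444 FPKM in the upper and 325 FPKM in the lower library, a ratio of 1.37 (1.26 to 1.48). Defa3 was at 81.4 FPKM in the upper and 84.1 FPKM in the lower library, a ratio of 0.968 whose counting interval (0.818 to 1.14) includes 1. Defa17 and Defa3 have the same coding sequence, so the split of shared reads between them can affect both ratios. The intervals do not cover that split. Defa17, Defa26 and Defa3, like Defa24 and Defa5, have the long cysteine spacing. Summed over the 7 members with that spacing, the upper library held 11605 FPKM and the lower library 11122 FPKM, a ratio of 1.04. Defa24 held 10287 FPKM of the upper and 9947 FPKM of the lower sum, so this ratio is largely that of Defa24. Defa5, of the same spacing, had a ratio of 0.335. The grouping by cysteine spacing was made after the values were seen.

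Not every listed member had a signal. Defa2, Defa20, Defa23, Defa-rs7, Defa-ps12 and Defa-ps13 were listed at 0 in all 3 libraries, Defa4 at 0.002 FPKM in the upper library alone, and Defa25 at 1.08 FPKM in the lower library alone. An exact 0 in files of this kind can be a failed estimate. Of the members at 0, every 50-base stretch of the Defa2, Defa20 and Defa-rs7 transcripts, and 94.8% of those of Defa23, occurs in another alpha-defensin transcript of GENCODE, whereas none of the stretches of Defa-ps12 and Defa-ps13 does. Defa17 and Defa3, which had a signal, share 92.0% and 92.2% of their stretches. The gene of origin of shared reads cannot be settled from these files.

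In the comparison of upper with lower small intestine, 12 of 19 members were measured, meaning that the upper or the lower value reached 1 FPKM. Of these, 1 was called higher and 4 lower in the upper library. A call is a difference of at least 1 on the log2(FPKM + 1) scale, a size rule without a test. Of all 11941 measured rows, 3.92% were called higher and 2.92% lower by the same rule, 6.84% in all. The member called higher was AY761184, with a difference of 1.29. Those called lower were Defa21, Defa22 and Defa5, with differences of -2.33, -2.22 and -1.57, and Defa25, whose difference of -1.06 rests on about 3.3 reads in the lower library. The median difference of the 12 measured members was -0.26, against -0.03 for all measured rows.

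**Figure D2:**
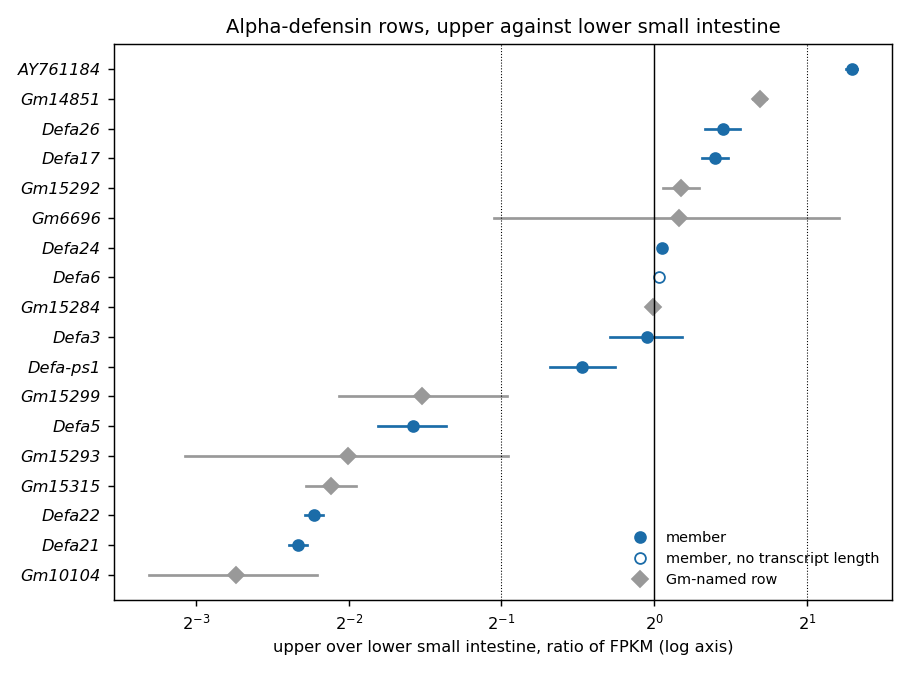
Ratio of FPKM, upper over lower small intestine (log axis), for reported alpha-defensin rows above 0 in both libraries, with lines for 95% exact intervals of counting error. Circles are members, the open circle (Defa6) has no interval, diamonds are rows with Gm names that RefSeq lists as older names of Defa genes, and dotted lines mark 2-fold. Defa21 and Defa22 lie near 0.2 and AY761184 lies at 2.45.

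The family sum was nearly level between the small intestinal libraries while its make-up differed. Defa6 held 50.8% of the upper and 45.8% of the lower sum, and Defa24 held 27.5% of the upper and 24.5% of the lower sum. AY761184 held 12% of the upper sum and 4.51% of the lower sum, at rank 3 in the upper library and rank 5 in the lower. Defa21 and Defa22 together held 4.39% of the upper sum and 19.6% of the lower sum. The 14 members other than these 5 held 5.31% of the upper and 5.59% of the lower sum. Shares do not depend on how a library was scaled, but they move with the row of highest level. Leaving out Defa6, AY761184 held 24.4% of the upper and 8.33% of the lower remainder, and the upper to lower ratio of the sum became 0.836. The direction of the sum also depended on what it was set against, since relative to Lyz1, the Paneth cell lysozyme gene, the ratio was 1.07.

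**Figure D3:**
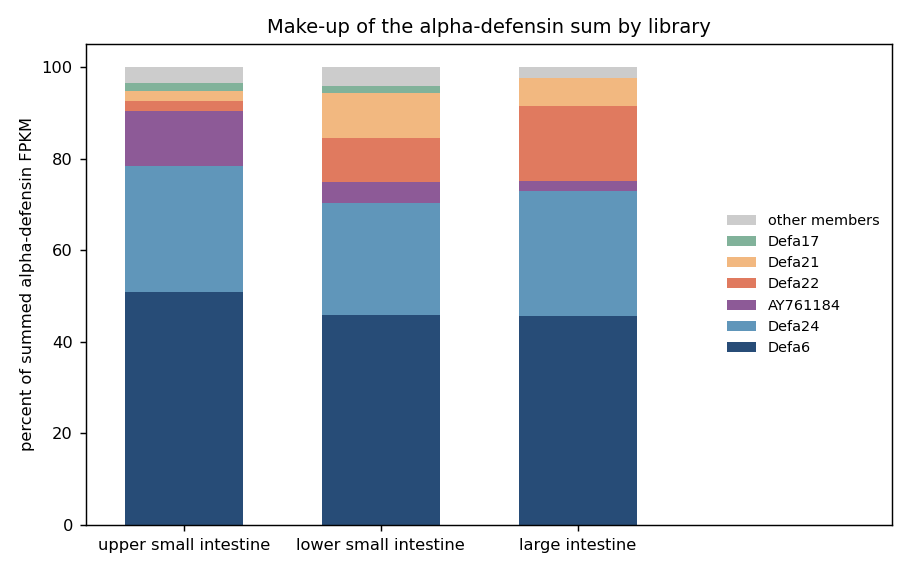
Percent of the summed alpha-defensin FPKM held by the 6 members named in the key and by all others, in the upper small, lower small and large intestinal libraries. The share of Defa21 with Defa22 is 4.39% in the upper and 19.6% in the lower library, and the large intestinal bar stands for a sum of only 34.7 FPKM.

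In the large intestine 7 members were above 0 and 4 reached 1 FPKM. These were Defa6, Defa24, Defa22 and Defa21, the same 4 genes that were highest among the members in the lower small intestinal library. The implied reads behind them were few, about 33.2 for Defa24 (22.7 to 46.3), 19.9 for Defa22 (12.2 to 30.9) and 7.2 for Defa21 (2.81 to 14.4). AY761184 and Defa5 stood on about 3.1 and 1.6 reads. Of the large sum Defa6 held 45.7%, Defa24 27.3%, Defa22 16.4%, Defa21 5.95% and AY761184 2.15%, and these shares rest on few reads.

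Against the large intestine all 11 members measured in the upper comparison were higher in the upper small intestine, and all 12 in the lower comparison were higher in the lower small intestine. These counts are of limited weight, since a member that is measured only through its small intestinal level had to differ. Of all measured rows, 11.7% were called higher and 11.2% lower in the upper small intestine than in the large intestine, 22.9% in all. For the lower small intestine these shares were 10.5% and 9.75%, 20.2% in all. Defa24 was 1086.6 times (778.1 to 1588) as high in the upper and 1050.8 times (752.5 to 1536) as high in the lower small intestine as in the large intestine. Defa22 was 149 times (95.8 to 243) as high in the upper and 695 times (448.5 to 1134.5) as high in the lower. Members listed at 0 in the large intestine were set against a floor of 3 reads there. Defa17 stood at 796 and 603 times that floor in the upper and lower small intestine, and Defa26 at 460.2 and 337 times. These are lower bounds only if the 0 is a true low count, since an exact 0 can be a failed estimate. For Defa17, 92.0% of the 50-base stretches also occur in another alpha-defensin transcript. The 2 comparisons share the large intestinal library and are not independent.

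The files also list 14 rows under Gm names that RefSeq gives as older names of Defa genes, all in the same cluster. They are not members by the naming rule and were found after the values were seen. Of these rows 6 were at 0 in all libraries and 8 had a signal. They summed to 11417 FPKM in the upper, 10538 FPKM in the lower and 8.2 FPKM in the large library, 23.4%, 20.6% and 19.2% of the total with the members. Gm15284, which RefSeq calls Defa30, was at 7199 FPKM in the upper, 7249 FPKM in the lower and 4.19 FPKM in the large library, so that only Defa6 and Defa24 exceeded it in the small intestine. Its transcript is 98.2% identical to that of Defa24, and like Defa24 it was level between the small intestinal libraries (upper to lower ratio 0.993, 0.976 to 1.01).

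The coding sequence of Gm15284 (chr8:21134642-21135598, plus strand) is shown for comparison with that of Defa24 given earlier, again with cysteine codons in capitals.
Gm15284: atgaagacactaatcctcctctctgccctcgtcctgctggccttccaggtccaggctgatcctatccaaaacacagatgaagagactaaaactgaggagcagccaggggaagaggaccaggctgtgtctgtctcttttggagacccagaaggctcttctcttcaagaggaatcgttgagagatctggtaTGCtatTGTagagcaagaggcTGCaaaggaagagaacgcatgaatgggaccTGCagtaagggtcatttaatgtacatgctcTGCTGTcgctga

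Gm14851 (Defa38 in RefSeq), which has 11 cysteine codons, was at 3687 FPKM in the upper, 2285 FPKM in the lower and 1.33 FPKM in the large library, a ratio of 1.61 (1.57 to 1.66). Gm15315 (Defa34) was at 124 FPKM in the upper and 535 FPKM in the lower library, a ratio of 0.231 (0.206 to 0.259). Gm10104 (Defa35) was at 10.9 FPKM in the upper and 72.9 FPKM in the lower library, a ratio of 0.15 (0.101 to 0.217). Gm15315 and Gm10104 have the same 9-codon cysteine spacing as Gm15284, which was level. Counting members and Gm-named rows together, 20 of 33 were measured between upper and lower, with 1 higher and 8 lower in the upper library. For all measured rows the shares called were 3.92% higher and 2.92% lower. The upper to lower ratio of the sums over members and Gm-named rows was 0.955.

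Genes lower in the upper library were not confined to one end of the cluster. Defa21 and Defa22 lie 137 kb apart, Defa5 lies 272 kb from Defa21, and Gm15315 lies 640.3 kb from it, near AY761184 at 677 kb, which was higher in the upper library.

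**Figure D4:**
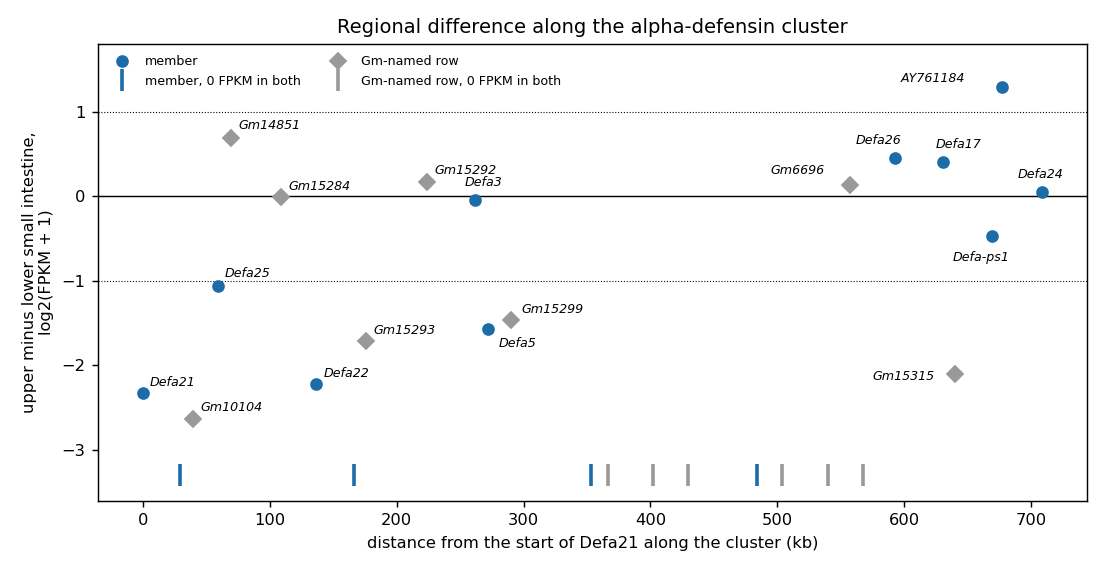
Difference between upper and lower small intestine on the log2(FPKM + 1) scale against distance in kb from the start of Defa21, for reported members (circles) and Gm-named rows (diamonds) of the cluster, with ticks at the bottom for rows at 0 in both libraries and dotted lines at the size rule. AY761184 at 1.29 and Gm15315 at -2.10 lie close together near the right end.

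RefSeq promoter sequences (GRCm38.p6) were at hand for 6 of the 19 members and for 10 of the Gm-named rows. The 250 bases before the start of Defa22 are shown because those of Defa21, its partner in the regional difference, are identical, and those of Defa23 because Defa-rs7 has the same sequence and both were listed at 0. Capitals mark CTTTGA, a core bound by TCF factors of the Wnt pathway and here on the minus strand as TCAAAG, and the TATA box motif TATAAA. The stretches are chr8:21162027-21162276 and chr8:21054790-21055039, both on the plus strand.
Defa22: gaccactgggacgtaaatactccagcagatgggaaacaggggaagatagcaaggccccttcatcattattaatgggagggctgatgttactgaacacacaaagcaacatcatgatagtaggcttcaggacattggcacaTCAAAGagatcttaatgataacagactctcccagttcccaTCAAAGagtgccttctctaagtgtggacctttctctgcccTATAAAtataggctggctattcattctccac
Defa23: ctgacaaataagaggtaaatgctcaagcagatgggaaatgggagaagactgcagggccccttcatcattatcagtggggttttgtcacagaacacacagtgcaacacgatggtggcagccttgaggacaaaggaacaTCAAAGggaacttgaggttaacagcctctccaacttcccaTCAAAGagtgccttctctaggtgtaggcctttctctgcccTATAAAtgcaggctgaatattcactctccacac

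Over the 300-base windows that run from 250 bases before to 50 bases after the start, CTTTGA occurred on either strand in 13 of 16 Defa windows, against 16.0% of all 32851 promoter windows. TATAAA occurred on either strand in 15 of 16 Defa windows, against 13.6% of all. The windows with no CTTTGA were those of Gm14851, Gm7849 and Gm7861, all genes with 11 cysteine codons, and the one with no TATAAA was that of Gm6696. The motifs do not overlap each other. The Defa windows are related sequences and are not independent, and a match is a description of the sequence. Defa2 and Defa20, at 0 in all libraries, have windows identical to each other that differ from that of Defa22 at 7 of 300 bases, and hold both motifs.

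Other Paneth cell genes were read beside the family. The list of Paneth cell products and lineage genes was chosen with earlier results of these data known, and without Gm15284 it holds 22 genes found in the files. Between upper and lower small intestine 20 were measured, 3 of them higher and 3 lower in the upper library, with a median difference of -0.22. Set against the large intestine, the upper library had 14 of 20 higher and 3 lower, and the lower library had 13 of 19 higher and 2 lower. By the same rule, 3.92% of all measured rows were called higher and 2.92% lower in the upper than in the lower library. Against the large intestine these shares were 11.7% and 11.2% for the upper library, and 10.5% and 9.75% for the lower. The counts of every gene list below stand beside these shares. Lyz1 was at 4151 FPKM in the upper, 4824 FPKM in the lower and 5.26 FPKM in the large library, an upper to lower ratio of 0.861. Itln1, encoding intelectin, was at 1566, 1407 and 3.40 FPKM and Mptx2, a pentraxin, at 736, 759 and 0.224 FPKM in the same order. Reg3b and Reg3g, antibacterial lectins also made by enterocytes, were at 8893, 22050 and 1002 FPKM and at 3945, 12929 and 114 FPKM, both called lower in the upper than in the lower library. Guca2b, encoding uroguanylin, differed in the other direction, at 1653 FPKM in the upper, 522 FPKM in the lower and 26.7 FPKM in the large library. Spink4, also a goblet cell gene, was at 1333, 2215 and 1335 FPKM in the same order.

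**Figure D5:**
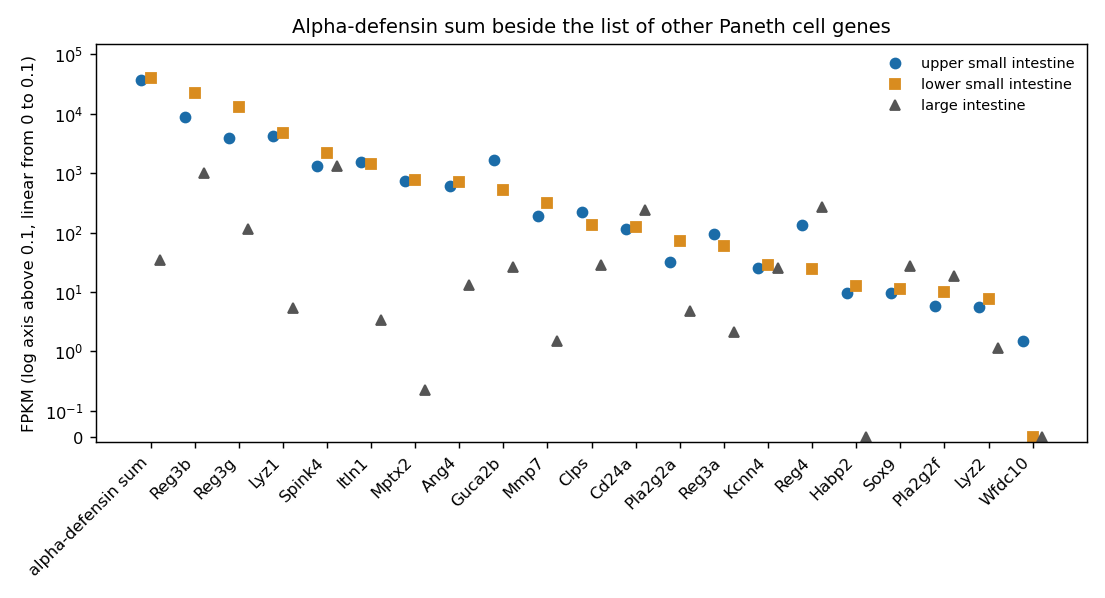
FPKM (log axis above 0.1, linear below) of the summed alpha-defensin members and of the listed Paneth cell genes that reached 1 FPKM in some library, with 1 symbol per library (upper small, lower small and large intestine). The alpha-defensin sum, at 37461 and 40644 FPKM in the small intestinal libraries, lies above every single gene of the list there, and some listed genes, such as Reg4 and Sox9, were highest in the large intestine.

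Genes that process, store or control alpha-defensins formed a list of 39, of which 32 were measured between upper and lower small intestine, 3 of them higher and none lower in the upper library (median -0.27). Set against the large intestine, the upper library had 6 of 35 higher and 6 lower (median -0.11), and the lower library had 4 of 32 higher and 5 lower (median -0.12). Mmp7, which activates the precursors in mice, was at 188 FPKM in the upper, 309 FPKM in the lower and 1.47 FPKM in the large library, so that, like the family, it was far lower in the large intestine. Slc30a2, a zinc transporter of Paneth cell granules, was at 32.5, 19.9 and 0.14 FPKM. Tcf7l2, the Wnt pathway factor of the intestine, was at 13.5, 18.2 and 24.5 FPKM, and Ctnnb1, encoding beta-catenin, at 210.1, 245 and 243 FPKM, neither past the size rule in any comparison.

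The 3 genes of that list called higher in the upper library were the trypsinogen genes Prss2, Try4 and Try5, at 6.5, 4.67 and 1.48 FPKM there and at 0 in the other libraries. Trypsin activates alpha-defensins in human Paneth cells, and these genes are also products of pancreatic acinar cells. Of 10 pancreatic acinar genes 7 of 8 measured were higher in the upper than in the lower library, against 3.92% of all measured rows. Among the 7 were Ctrb1 at 15.5 FPKM and Cela2a at 13.4 FPKM, both at 0 in the lower and large libraries. The most abundant genes of that list were present in all libraries, Cela1 at 12.9, 5.71 and 227 FPKM and Clps, which the Paneth list also holds, at 221, 132 and 28.2 FPKM in the upper, lower and large libraries. The list summed to 286.5, 137.7 and 255.5 FPKM in the same order. Prss1 and Amy2a5 were at 0 in all 3 libraries. The part of these transcripts in the differences given here was not tested.

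Markers of other cell types also moved between regions. The 8 T cell genes found in the files summed to 593 FPKM in the upper, 588 FPKM in the lower and 17.7 FPKM in the large library. Goblet cell genes summed to 8279, 10872 and 10901 FPKM and enteroendocrine genes to 568, 275 and 311 FPKM in the same order. Of the goblet cell genes 1 of 9 was higher and 4 lower, and of the enteroendocrine genes 5 of 11 were higher and 1 lower, in the upper library than in the large one. For all measured rows the shares in that comparison were 11.7% higher and 11.2% lower. Between upper and lower small intestine, 0 goblet cell genes were higher and 3 lower in the upper library, and 4 enteroendocrine genes were higher and 1 lower. All measured rows had 3.92% higher and 2.92% lower there. In the lower library against the large one, 2 goblet cell genes were higher and 2 lower, and 4 enteroendocrine genes were higher and 1 lower, beside 10.5% and 9.75% of all measured rows. Absorptive cell genes summed to 28183, 13567 and 8324 FPKM, but differed among themselves, with 8 of 12 higher and 4 lower in each small intestinal library than in the large intestine. Car1, given above, made up most of the large intestinal sum. Stem cell genes summed to 646, 466 and 57.6 FPKM, of which Olfm4 alone held 579, 396 and 0.305 FPKM. Lgr5, the receptor gene that marks intestinal stem cells, was at 3.68, 5.02 and 3.78 FPKM, and 2 of 6 stem cell genes were higher and 1 lower in each small intestinal library than in the large intestine. Sums of tuft cell genes lay between 3.22 and 6.11 FPKM, of fibroblast and muscle genes between 2.31 and 5.05 FPKM, and of erythroid genes between 6.61 and 13.6 FPKM. Neutrophil and myeloid genes summed to 11.9, 25.1 and 2.85 FPKM, with the granule genes Ngp, Elane and Mpo at 0 in all libraries. Their part in the results was not tested.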

How the data were processed

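Each deposited file gives the authors' value for every gene of its library, read here as FPKM. The unit is inferred, since the file headers name a library and no unit. The submitters' processing notes name TopHat2 2.0.13, Bowtie2 2.2.3, SAMtools 0.1.19, Cufflinks 2.2.1 and mm10, without roles. The gene annotation, the strand setting and the handling of reads that match several genes were not given in the sources used here, though the labels name a stranded kit. The upper library held a microRNA row, Mir1892, at 49507 FPKM, which weighs on its sum.

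Differences were computed from the deposited FPKM as log2(FPKM + 1) of the first-named library minus the second, which understates low genes. A row counted as measured where the higher of both values reached 1 FPKM, and a difference of 1 was a call. With 1 library per group there is no test, SD or p-value.

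For implied reads, 1 read per kb was worth 0.1365, 0.092 and 0.1195 FPKM (upper, lower, large), a spacing fitted to genes with 1 transcript of at least 1500 nt. Of 372, 371 and 359 such genes, 74.7%, 76.5% and 75.5% came within 0.15 of whole reads, too few for a test on counts. The step fit was tested on simulated data. Intervals are exact (Clopper-Pearson for ratios, Poisson for reads), from the shortest transcript. Alignments used Biopython 1.88.

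The values of 1 member are not reported here, though it enters the family's sums and counts. Members, lists and rules were chosen with earlier results of these data known. Members described one by one were the 10 highest in either small intestinal library, the 5 highest in the large intestine, the 5 with the largest upper to lower difference at 10 FPKM or more, and AY761184. From each list up to 6 genes of largest level could be named. Mptx2, Reg4, Sox9 (as a Paneth list gene), Slc30a2, Tcf7l2, the trypsinogen genes, Sis, Defb37, Retnlb, Duox2, Camp and the genes named as listed at 0 fall outside that rule and were chosen after their values were seen.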

Additional observations from a re-analysis of the deposited data

How the results depend on the processing

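Calls of single members by the size rule did not change under rescaling to an equal sum over all rows. That scaling shifted log2 ratios of FPKM by -0.1 (upper to lower), -0.41 (upper to large) and -0.31 (lower to large). On the log2(FPKM + 1) scale the move depends on the level, and the medians of all measured rows became -0.12, -0.36 and -0.27, against -0.03, 0 and 0 as deposited. The log2 ratio of the family sums between upper and lower small intestine was -0.12 as deposited. It was -0.22 at the same sum over all rows, -0.15 at the same sum over rows that are neither short RNA names nor members, -0.26 without Defa6 (the most abundant member) and -0.07 with the Gm-named rows, and it turned to 0.1 when divided by Lyz1. Its sign therefore depends on whether Lyz1 is the scale. The log2 ratio of upper to large, 10.07 as deposited, was 9.66 at the same sum over all rows and 0.45 when divided by Lyz1. That of lower to large, 10.19 as deposited, was 0.35 when divided by Lyz1. A size rule of 2 log2 units left 0 members higher and 2 lower in the upper than in the lower small intestine. The call of Defa25 was lost with a pseudocount of 10, with a filter of 5 FPKM and with that size rule, which left 11 members higher in the lower small than in the large intestine. Without Defa25, 3 members were lower in the upper than in the lower library under that pseudocount and under that filter. Shares of all measured rows are not given for that size rule, pseudocount or filter, so these counts cannot be set against them. With the Gm-named rows, an alternative chosen after seeing the data like the sum without Defa6, 8 were lower in the upper than in the lower library, 19 were higher in the upper than in the large, and 20 were higher in the lower than in the large. No paired analysis was possible because each region has 1 library. Depth limits the large intestinal values, where 3 reads stand for 0.713 to 1.86 FPKM in the matched members reported here.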

Other observations

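In a list of beta-defensins and other antimicrobial genes, more were called lower than higher in both small intestinal libraries when set against the large intestine. Of its 57 rows 44, 40 and 42 were at 0 in the upper, lower and large libraries, most of them Defb rows. Few Defb rows were measured, so the calls are not a pattern of beta-defensins as a group. The list of 57 rows, which holds every Defb symbol, had 13 measured between upper and lower small intestine, with none higher and 6 lower in the upper library (median -0.91). Set against the large intestine, the upper library had 3 of 16 higher and 10 lower, and the lower library had 2 of 15 higher and 8 lower, with medians of -1.29 and -1.14. For all measured rows the shares called higher and lower were 3.92% and 2.92% between upper and lower. Against the large intestine they were 11.7% and 11.2% for the upper library, and 10.5% and 9.75% for the lower. Lypd8, which limits the movement of flagellated bacteria, was at 2153 FPKM in the upper, 2417 FPKM in the lower and 6486 FPKM in the large library. Zg16, a goblet cell lectin, was at 3017, 3193 and 3331 FPKM in the same order. Defb37, a beta-defensin gene, was at 0 in the upper, 1.16 FPKM in the lower and 21.9 FPKM in the large library. Wfdc2, a secreted protease inhibitor family gene, was at 0.251, 0.504 and 383 FPKM in the same order, and Retnlb, encoding a goblet cell protein active against bacteria, at 0.514, 4.65 and 45.4 FPKM. Nos2, encoding inducible nitric oxide synthase, was at 11.9 FPKM in the upper, 114 FPKM in the lower and 0.144 FPKM in the large library. Duox2, which makes hydrogen peroxide, was at 11.03, 92.1 and 11.3 FPKM, and was called lower in the upper than in the lower library. Camp, encoding cathelicidin, was at 0 in all 3 libraries.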
